A study of Mus musculus with 2 samples.

Results

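The 8 immunoglobulin heavy constant genes of the mouse, Ighm, Ighd, Ighg3, Ighg1, Ighg2b, Ighg2c, Ighe and Igha, were taken by name, and all 8 had a row among the 31053 genes of both count matrices. Their unique molecular identifiers (UMIs, each a tag for 1 captured RNA molecule) were counted per cell in immune cells of the stomach. The cells were live CD45+ cells flushed from the gastric mucosa of TxA23 mice, whose transgenic T cell receptor recognises a stomach antigen and which become gastritic, so both groups share the transgene and the disease. One library came from 3 female mice whose subcutaneous osmotic pumps released 800 ng of recombinant IL-27 (covalently linked p28 and EBI3, 4 ug per mL in 200 uL). The other came from 1 male and 1 female mouse whose pumps held PBS. Pumps were implanted at 3 months of age and stayed for 4 weeks. The labels give no strain, and healthy mice without the transgene are not analysed here.

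An antibody's heavy chain ends in a constant region that sets its class and so which receptors and complement proteins it engages. A B cell first reads Ighm and Ighd, splicing both from 1 long transcript. Class switch recombination later deletes the DNA between the variable exon and a downstream gene, so that the cell reads an Ighg, Ighe or Igha gene in its place. IgM and IgD are the antigen receptors of naive B cells, the IgG classes serve in blood and tissue, IgE arms mast cells, and IgA is the main class secreted onto mucosal surfaces, the stomach's included. Plasma cells carry far more constant-region RNA than B cells do, because they secrete antibody.

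The genes lie in a row on the minus strand of chromosome 12 (GRCm38, the build also called mm10, GENCODE M21), from Ighm at chr12:113418558-113422730, through Ighd at chr12:113406604-113416324, Ighg3 at chr12:113356224-113361232, Ighg1 at chr12:113325240-113330523, Ighg2b at chr12:113302965-113307933, Ighg2c at chr12:113285325-113288932 and Ighe at chr12:113269260-113273248, to Igha at chr12:113254830-113260236. Libraries made from the 5′ end of RNA reach the constant region from its start. Where in each gene the reads of these data lay was not examined. The first 60 bases of each gene's first annotated exon (CH1) are printed 5′ to 3′ as transcribed. Capitals in Ighg3, Ighg2b and Ighg2c mark bases unlike those of Ighg1 at the same position.

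Ighm: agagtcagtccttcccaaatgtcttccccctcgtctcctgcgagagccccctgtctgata
Ighd: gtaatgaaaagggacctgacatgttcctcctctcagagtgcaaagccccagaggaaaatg
Ighg3: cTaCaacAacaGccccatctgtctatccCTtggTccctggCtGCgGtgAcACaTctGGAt
Ighg1: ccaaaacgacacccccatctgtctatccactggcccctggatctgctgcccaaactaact
Ighg2b: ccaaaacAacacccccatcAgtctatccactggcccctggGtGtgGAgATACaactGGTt
Ighg2c: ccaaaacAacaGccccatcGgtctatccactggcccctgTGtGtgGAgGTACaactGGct
Ighe: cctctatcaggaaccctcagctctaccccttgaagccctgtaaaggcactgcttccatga
Igha: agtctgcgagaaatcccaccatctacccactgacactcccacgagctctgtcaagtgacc

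In this stretch Ighg3 differed from Ighg1 at 18 positions, Ighg2c at 14 and Ighg2b at 13. Over the whole CH1 exon the 4 IgG genes were 78.4% to 88.3% identical to each other, and every other pair of members was 48.2% to 61.0% identical. No stretch of 90 bases in the annotated transcripts of any member occurred in another member, although Ighg3 and Ighg2b shared a run of 88 bases. A read lying wholly within that run could not be told apart between Ighg3 and Ighg2b, and the read length is not given in the sources used here. Ighg2c stands in the reference where some mouse strains carry Ighg2a. Ighg2a has no row in the matrices, so RNA of a strain with Ighg2a would be counted under a similar gene or not at all.

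Filters left 19972 cells from IL-27 mice and 11693 from PBS mice, at medians of 3053 and 2946 UMIs. By barcode suffix the IL-27 library spanned 3 wells and the PBS library 2. Y-linked UMIs numbered 0 in the IL-27 wells and PBS well 1 but 3138 in PBS well 2, although the labels do not say that a well is a mouse. Where PBS well 2 differs from the other wells, sex and well cannot be told apart. Each treatment is 1 library, so no comparison between treatments carries a test: intervals (95%, exact Poisson for levels, exact binomial for shares, conditional for ratios) cover counting error only, and well values are a description. PBS well 2 stood apart: it had the most Igha, and Scrublet marked only 0.0183% of its cells as doublets, so none were removed there. The libraries shared 355 of their 16-base barcode sequences, 46 to 71 for each pair of wells across libraries, against 51 to 63 for pairs within a library. IL-27 well 3 also stood apart, with 33 of the 43 IL-27 plasma-gated cells.

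B cells were gated on at least 2 of 4 B-cell marker genes, among them Cd79a and Cd79b (which signal for the antigen receptor) and Ms4a1 (a B-cell surface protein), with no UMI of 8 markers of other lineages. The gate held 10782 IL-27 cells (54.0% of cells) and 7390 PBS cells (63.2%). Levels are in CPM, counts per 1e+06, the UMIs of a gene scaled to that many UMIs of all genes summed over the gated cells. UMIs count 1 tag a molecule and are not divided by gene length. Cd3d, Cd3e and Cd3g were at 0 in the gate by its definition, and the 6-gene T-cell list summed to 39.4 to 50.6 CPM in the IL-27 wells and 40.5 and 54.6 CPM in the PBS wells. A 6-gene gastric epithelium list summed to 55.6, 11.4 and 6.17 CPM in the IL-27 wells and 7.31 and 13 CPM in the PBS wells. An erythroid pair, Hbb-bs and Hba-a1, summed to 0, 4.90 and 630 CPM in the IL-27 wells and 1.48 and 2.80 CPM in the PBS wells, and 1 cell of IL-27 well 3 held 7886 of the Hbb-bs UMIs. A 3-gene NK-cell list summed to 3.34, 1.79 and 2.10 CPM in the IL-27 wells and 2.87 and 11.2 CPM in the PBS wells, and a 4-gene myeloid list to 3.98, 3.48 and 4.57 CPM and to 5 and 10.8 CPM, so that PBS well 2 was highest for the T, NK and myeloid lists. The part of these markers in the results was not tested.

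The B-cell antibody RNA of both treatments was almost all IgM and IgD. Ighm held 57.5% of the 8 genes' UMIs in IL-27 B-gated cells and 58.2% in PBS ones, and Ighd held 38.4% and 34.7%. Among the switched genes Igha had 1.51% in IL-27 and 4.32% in PBS cells, Ighg1 1.17% and 0.503%, Ighg3 0.963% and 1.15%, Ighg2b 0.355% and 0.898%, Ighg2c 0.0496% and 0.128%, and Ighe 0.0239% and 0.00582%. In total 54415 member UMIs were counted in IL-27 B-gated cells and 34391 in PBS ones, a median of 4 per cell in both. Of the members, 6 reached at least 20 UMIs over both libraries and 10 CPM in the higher one, and 3 of these 6 differed by at least 1.5-fold (pseudocount 1 CPM), against 0.76% of all 7759 genes that met the same minimum. Ighg1 was higher in IL-27 cells, where 0.425% of all genes were past the fold in that direction. Igha and Ighg2b were lower, where 0.335% of all genes were. Ighm, Ighd and Ighg3 were within 1.5-fold, and Ighg2c and Ighe were under the minimum. The median log2 ratio of the 6 members was -0.09, beside 0.03 for all genes.

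The count depended on which PBS well was used. Against PBS well 1 alone 1 of the 5 members that met the minimum, Ighg1, was past 1.5-fold (higher), where 0.813% of all genes were past it either way, 0.478% higher and 0.336% lower. Against PBS well 2 alone the same 3 members were past it, where 1.57% of genes were, 0.896% higher and 0.678% lower. Between the PBS wells themselves 4 of 6 members, Ighg3, Ighg1, Ighg2b and Igha, were past it and all were higher in PBS well 2, where 1.88% of genes were past it, 1.08% higher and 0.797% lower. So the PBS wells differed from each other in more members than the libraries did.

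**Figure D1:**
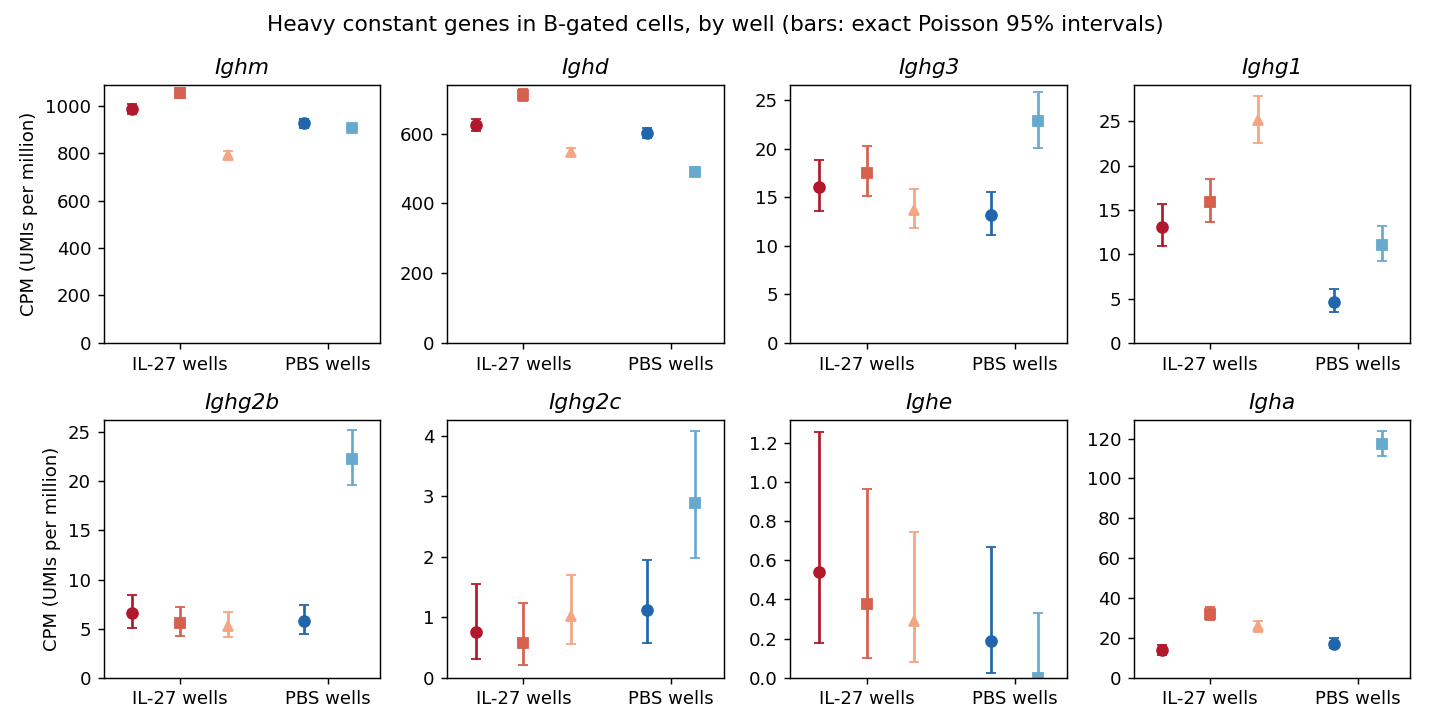
Level of each heavy constant gene (CPM, linear axes from 0) in B-gated cells of the 3 IL-27 wells (left in each panel) and the 2 PBS wells (right), with exact Poisson 95% intervals as bars. Ighg1 over all B-gated cells was higher in each IL-27 well than in either PBS well, and Igha and Ighg2b stood out only in PBS well 2 (square, 117 and 22.3 CPM). The share of all genes with every IL-27 well above both PBS wells was not counted.

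Ighm, the heavy chain of the first antigen receptor, was nearly level between treatments. It was at 986, 1053 and 794 CPM in the IL-27 wells and 925 and 905 CPM in the PBS wells. The IL-27 wells lay on both sides of the PBS wells. The pooled ratio of IL-27 over PBS was 1.01 (0.997 to 1.03), and 87.0% of IL-27 and 85.3% of PBS B-gated cells had at least 1 Ighm UMI. Leaving out IL-27 well 3 gave 1.12 (1.1 to 1.14), and IL-27 well 3 alone gave 0.868 (0.848 to 0.888).

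Ighd, the IgD heavy chain that mature naive B cells add to IgM, was at 625, 711 and 548 CPM in the IL-27 wells and 602 and 491 CPM in the PBS wells. The wells of the 2 treatments overlapped, and PBS well 2 was the lowest of the 5. The pooled ratio was 1.14 (1.11 to 1.16), against PBS well 1 alone it was 1.03 (1.00 to 1.06), and against PBS well 2 alone 1.26 (1.23 to 1.30). Of B-gated cells, 77.7% in IL-27 and 72.7% in PBS held an Ighd UMI.

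The ratio of Ighd to Ighm UMIs put the B-cell gates in an order that both libraries shared, apart from germinal centre-like cells. In all B-gated cells the value was 0.634, 0.675 and 0.690 across the IL-27 wells, against 0.651 and 0.542 across the PBS wells, with pooled values of 0.668 (0.657 to 0.680) and 0.597 (0.583 to 0.610). PBS well 1 lay among the IL-27 wells and PBS well 2 below them. The ratio was highest in cells with an Il4i1 UMI (an interleukin-4-induced enzyme), at 0.778 in IL-27 and 0.716 in PBS. In this gate each IL-27 well (0.744, 0.813 and 0.769) was above both PBS wells (0.715 and 0.718). The interval of each IL-27 well overlapped that of PBS well 2. Next were cells with Fcer2a (the low-affinity IgE receptor CD23 of follicular B cells), at 0.718 in IL-27 and 0.653 in PBS. Cells with at least 2 Cr2 UMIs but no Fcer2a, a marker pattern of marginal zone B cells, had 0.617 in IL-27 and 0.537 in PBS, and the remaining B cells 0.613 and 0.489. Intervals of the last 2 gates overlapped in both libraries.

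B1-like cells, which had at least 2 of Bhlhe41, Zbtb32, Fcrl5, Cd5 and Spn, were at the IgM end. B1 cells are known as innate-like makers of natural IgM with little IgD. Their Ighd to Ighm ratio was 0.103, 0.0920 and 0.141 across the IL-27 wells, against 0.107 and 0.161 across the PBS wells, below the other 5 B gates in every well. The treatments overlapped. No Ighd or Ighm UMI entered this gate's definition. Germinal centre-like cells, gated on at least 2 of 8 genes such as S1pr2, Gcsam and Bcl6, had 0.491, 0.448 and 0.235 across the IL-27 wells, against 0.574 and 0.580 across the PBS wells. Every IL-27 well was below both PBS wells, but apart from IL-27 well 3 their intervals overlapped those of the PBS wells, where 30 and 39 cells were gated.

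**Figure D2:**
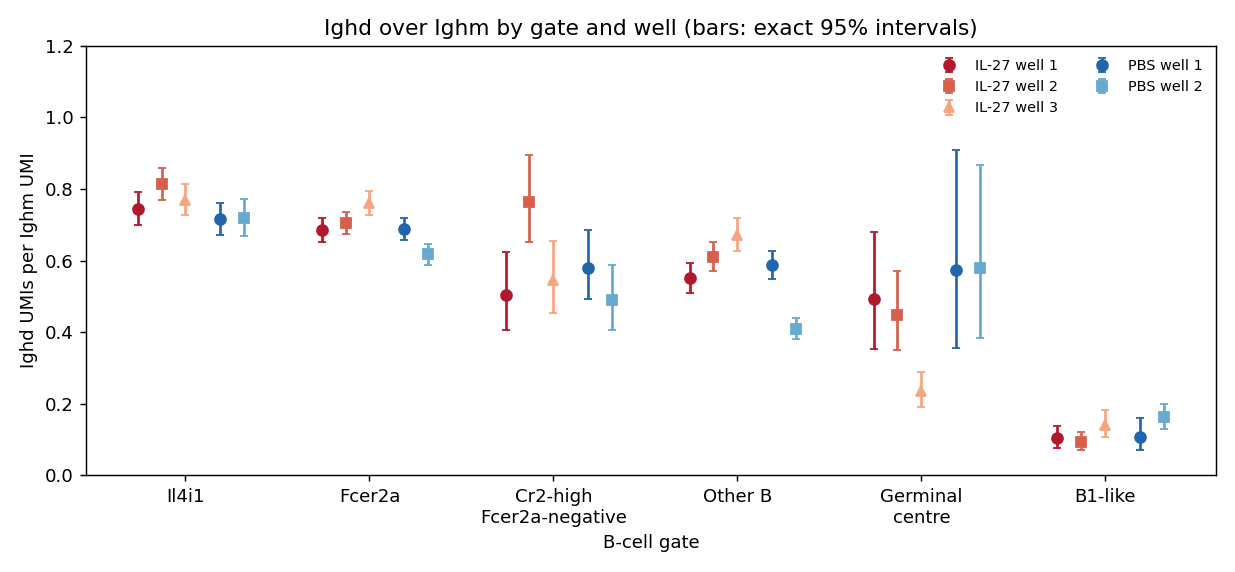
UMIs of Ighd per UMI of Ighm in 6 gates of B cells (horizontal axis), with IL-27 wells in reds left of PBS wells in blues and exact 95% intervals as bars. B1-like cells lie between 0.0920 and 0.161 in every well, and the Il4i1 and Fcer2a gates between 0.617 and 0.813.

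Among the 6 members above the minimum, Ighg1 alone was higher in B-gated cells of every IL-27 well than of either PBS well. It encodes the IgG1 heavy chain, a class that interleukin-4 is known to favour in mice. Its level was 13.1, 15.9 and 25.1 CPM in the IL-27 wells and 4.63 and 11.1 CPM in the PBS wells. The groups of wells did not overlap, although IL-27 well 1 and PBS well 2 were close and their intervals overlapped. The share of all genes with every IL-27 well above both PBS wells was not counted, so this order alone does not set Ighg1 apart. The pooled level was 18.9 CPM in IL-27 cells (637 UMIs) and 7.90 CPM in PBS cells (173 UMIs), a ratio of 2.39 (2.02 to 2.85). It was 4.08 (3.06 to 5.56) against PBS well 1 and 1.70 (1.40 to 2.08) against PBS well 2, and 1.85 (1.53 to 2.25) without IL-27 well 3. Germinal centre-gated cells held 348 of these 637 UMIs in IL-27 and 27 of the 173 in PBS. In B-gated cells outside that gate, a comparison added after the data had been seen, Ighg1 was at 8.27, 10.7 and 8.01 CPM across the IL-27 wells, against 3.18 and 10.2 CPM across the PBS wells. The wells then overlapped, and the ratio was 1.33 (1.08 to 1.63) pooled, 2.82 (1.97 to 4.15) against PBS well 1 and 0.874 (0.700 to 1.1) against PBS well 2. In Fcer2a-gated cells Ighg1 was at 3.39 CPM in IL-27 and 4.70 CPM in PBS, a ratio of 0.722 (0.469 to 1.11), which was 1.26 (0.669 to 2.53) against PBS well 1 and 0.505 (0.315 to 0.818) against PBS well 2. Of B-gated cells, 1.55% in IL-27 and 0.771% in PBS held an Ighg1 UMI, and after each cell was thinned to 1000 UMIs 0.783% and 0.417% did. In T-gated cells, which should lack the gene, the shares were 0.0944% and 0.0451% at median depths of 3934 and 4013 UMIs, against 2815 and 2766 UMIs in B-gated cells.

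Cells could also be assigned to a class. A B-gated cell was class-called when it held at least 3 member UMIs and 1 class, counting Ighm and Ighd together, held at least 2/3 of them. This called 8243 IL-27 and 5476 PBS cells. IgG1-called cells numbered 14, 17 and 33 across the IL-27 wells, against 7 and 15 across the PBS wells. As a share of called cells that was 0.576%, 0.616% and 1.08% across the IL-27 wells, against 0.25% and 0.561% in the PBS wells. The highest PBS well nearly reached the lowest IL-27 well, and the pooled ratio was 1.93 (1.17 to 3.30), or 1.38 (0.780 to 2.62) against PBS well 2 alone. IgG1-called cells were deep, at medians of 6177 UMIs in IL-27 and 3940 in PBS, against 2914 and 2838 UMIs for IgM/IgD-called cells.

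The germinal centre gate held many of the IgG1-called cells. In IL-27 31 of the 64 IgG1-called B-gated cells were in the germinal centre gate (22 of 33 in IL-27 well 3), and in PBS 6 of 22. The gate itself held 1.23%, 1.67% and 2.62% of B-gated cells in the IL-27 wells, against 0.758% and 1.14% in the PBS wells. Ighg1 within germinal centre-gated cells was at 204, 213 and 263 CPM in the IL-27 wells and 143 and 67.5 CPM in the PBS wells, and every IL-27 well was higher than both PBS wells. Pooled, the ratio within the gate was 2.48 (1.67 to 3.81), from 348 UMIs in IL-27 and 27 in PBS. By called cells the wells overlapped. IgG1-called cells were 14.3%, 11.9% and 26.5% of the called germinal centre-gated cells across the IL-27 wells, against 21.1% and 8% across the PBS wells. Pooled, they were 31 of 153 (20.3%) in IL-27 and 6 of 44 (13.6%) in PBS, a ratio of 1.49 (0.611 to 4.36), which was 0.962 (0.340 to 3.75) against PBS well 1 and 2.53 (0.644 to 21.8) against PBS well 2.

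Igha, the mucosal class, went the other way in the pooled libraries, and a single well set that direction. It was at 13.7, 32.0 and 25.7 CPM in the IL-27 wells and 17.1 and 117 CPM in the PBS wells. PBS well 1 lay among the IL-27 wells, and PBS well 2 was 6.85 times as high as PBS well 1 (5.87 to 8.03). The pooled ratio of IL-27 over PBS was 0.359 (0.329 to 0.391). Against PBS well 1 alone it reversed to 1.42 (1.21 to 1.68), and against PBS well 2 alone it was 0.208 (0.190 to 0.227).

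IgA-called B-gated cells followed the UMIs. They numbered 6, 31 and 35 across the IL-27 wells, against 16 and 163 across the PBS wells, which was 0.247%, 1.12% and 1.15% of called cells in IL-27 and 0.571% and 6.10% in PBS. The 163 cells of PBS well 2 were in no single gate, with 85 in the remaining B cells, 34 B1-like, 18 with Il4i1, 16 with Fcer2a, 7 germinal centre and 3 with Cr2 but no Fcer2a. IgA-called cells held a median of 7 member UMIs in IL-27 and of 6 in PBS well 2. Heavy variable genes, looked at after the values were seen, were also spread. Of the IgA-called B- and plasma-gated cells with at least 2 UMIs of a heavy variable gene, 51 IL-27 cells used 31 leading variable genes and 139 PBS cells used 48. Of 61 such IgG1-called IL-27 cells, 12 led with Ighv1-14 (10 of them in IL-27 well 3) and the whole set used 29 genes, and shared descent of these cells was not tested.

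Igha UMIs also lay in T-gated cells of PBS well 2. There 40 of 741 T-gated cells held one (5.40%), against 275 of 3431 B-gated cells (8.02%), and 12 T-gated cells (1.62%) held at least 3, against 186 B-gated cells (5.42%). T-gated cells with an Igha UMI made up 0.126% in the IL-27 library and 0.407% in PBS well 1. Thinned to 1000 UMIs, 2.37% of T-gated and 5.2% of B-gated cells of PBS well 2 held one. Cd74, an antigen presentation gene, was high in both B-gated cells (15558 to 19524 CPM over the wells) and myeloid-gated cells (3471 to 10609 CPM). In T-gated cells Cd74 was at 124 to 144 CPM in the IL-27 wells, 196 CPM in PBS well 1 and 1223 CPM in PBS well 2. With a doublet score threshold of 0.25 in all wells the pooled ratio of IgA-called shares was 0.270, against 0.267 as reported. How many cells of PBS well 2 this removed is not given here, so the ratio does not bear on that well alone. The part of mixed or doublet cells in the Igha level of PBS well 2 was not tested.

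Ighg2b had the same pattern at a lower level. It encodes IgG2b, which transforming growth factor beta is known to favour in mice. It was at 6.56, 5.56 and 5.30 CPM in the IL-27 wells and 5.74 and 22.3 CPM in the PBS wells. Only PBS well 2 was apart. The pooled ratio of 0.406 (0.337 to 0.487) became 0.998 (0.746 to 1.35) against PBS well 1 alone. IgG2b-called cells numbered 3, 4 and 6 across the IL-27 wells, against 8 and 25 across the PBS wells.

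Ighg3 encodes IgG3, a class known for responses to polysaccharides. It was at 16, 17.5 and 13.7 CPM in the IL-27 wells and 13.1 and 22.8 CPM in the PBS wells, which overlapped, and the pooled ratio was 0.862 (0.755 to 0.985). Its UMIs were placed unlike those of the other switched genes. Of the Ighg3 UMIs of B-gated cells, 63.9% in IL-27 and 59.2% in PBS lay in cells called IgM/IgD. For Ighg1 the shares were 12.1% in IL-27 and 7.51% in PBS, for Igha 10.4% and 4.17%, and for Ighg2b 17.1% and 11%. In all 5 wells the Ighg3 share was 53.0% to 70.4%. An Ighg3 UMI was found in 3.40% of IgM/IgD-called cells in IL-27 and 3.73% in PBS, while only 14 IL-27 and 16 PBS cells were called IgG3. In T-gated cells Ighg3 was at 0.133 CPM in IL-27 and 0.0926 CPM in PBS.

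Ighg2c and Ighe were near the limit of detection in B cells. Ighg2c, the class that interferon-gamma is known to favour in mice, had 27 UMIs in IL-27 (0.801 CPM) and 44 in PBS (2.01 CPM). Its wells were at 0.753, 0.565 and 1.02 CPM in IL-27 and 1.11 and 2.89 CPM in PBS. Each IL-27 well was below both PBS wells, with overlapping intervals against PBS well 1. Ighe, the IgE heavy chain, had 13 UMIs in IL-27 (5, 4 and 4 by well) and 2 in PBS (2 and 0 by well), and no B-gated cell was called IgE. The limit that a count of 0 allows was 0.0364% of called cells in IL-27 and 0.0548% in PBS.

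Summed over the switched classes, 165 of 8243 called IL-27 cells (2.0%, 1.71 to 2.33) and 252 of 5476 called PBS cells (4.6%, 4.06 to 5.19) were switched, a ratio of 0.435 (0.355 to 0.531). The wells were at 1.19%, 1.96% and 2.69% in IL-27 and 1.25% and 8.12% in PBS. PBS well 2 was above all the others, and PBS well 1 lay among the IL-27 wells. Against PBS well 1 alone the ratio reversed to 1.60 (1.11 to 2.38), and against PBS well 2 alone it was 0.247 (0.200 to 0.303). Within the PBS library PBS well 2 exceeded PBS well 1 by 6.50-fold (4.53 to 9.57), more than the libraries differed from each other.

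Switched cells were most frequent in the same 2 gates in both libraries. In germinal centre-gated cells 25.5% of called IL-27 cells (39 of 153) and 34.1% of called PBS cells (15 of 44) were switched, with overlapping intervals. The IL-27 ones were mainly IgG1 (31 of 39), while the PBS ones were 7 IgA, all from PBS well 2, 6 IgG1, 1 IgG2b and 1 IgG2c. In B1-like cells 13.3% in IL-27 and 32.9% in PBS were switched, and the wells were at 2.22%, 15.5% and 18.8% in IL-27 and 17.1% and 37.6% in PBS. In Fcer2a cells, the most numerous gate, 0.408% in IL-27 and 1.19% in PBS were switched.

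**Figure D3:**
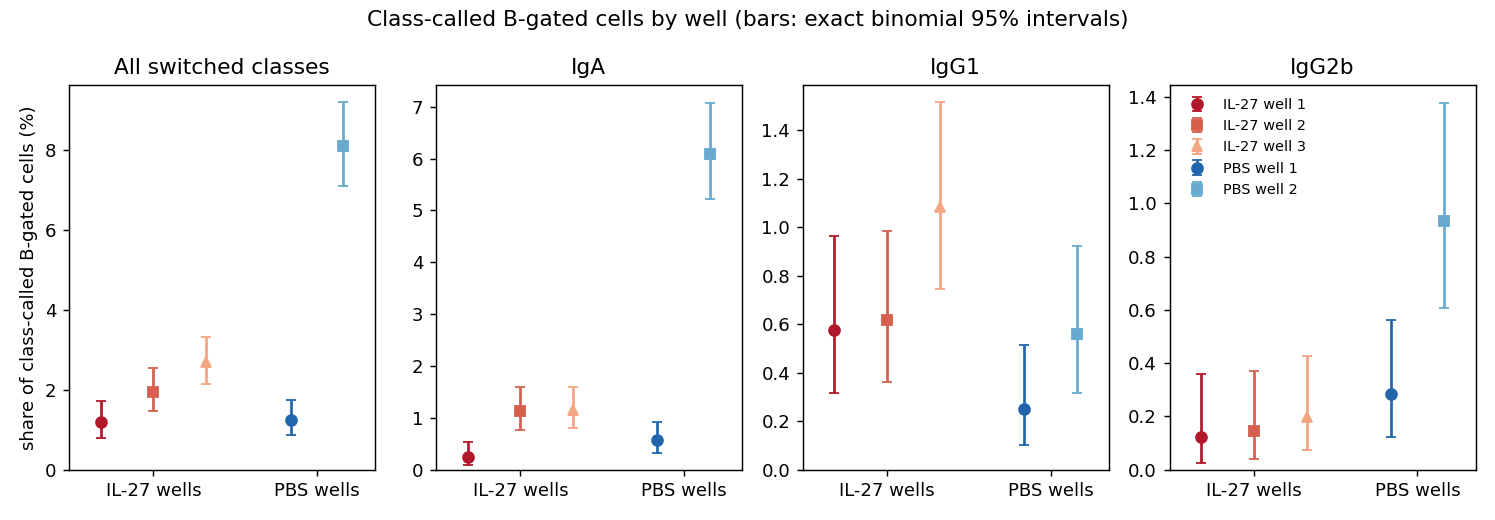
Share of class-called B-gated cells (%, linear axes from 0) in all switched classes, IgA, IgG1 and IgG2b, for the 3 IL-27 wells (left in each panel) and the 2 PBS wells (right), with exact binomial 95% intervals as bars. The IL-27 wells are between 1.19% and 2.69% switched, PBS well 1 is at 1.25%, and PBS well 2 is at 8.12% with 6.10% IgA.

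Plasma-gated cells were few, and the class that led among them was IgG1 in the IL-27 library and IgA in the PBS library. The plasma gate asked for at least 4 of Jchain, Xbp1, Mzb1, Sdc1, Prdm1, Tnfrsf17 and Derl3, none of which is a member. It held 43 IL-27 cells (6, 4 and 33 in the wells) and 12 PBS cells (5 and 7). The class with most UMIs was IgG1 in 26, IgA in 9, IgM in 4, IgG2c in 2 and IgE in 2 of the IL-27 cells. Among the PBS cells it was IgA in 8, IgM in 2, IgG2b in 1 and IgG2c in 1. IgG1 cells were thus 60.5% of the IL-27 plasma-gated cells (44.4 to 75.0) and 0 of 12 in PBS. That count of 0 still allows a share of up to 26.5%.

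Plasma-gated cells led by IgG1 were found in each IL-27 well, with 3 of 6, 2 of 4 and 21 of 33 cells. Without IL-27 well 3 they were 5 of 10, or 50%. Those 5 held 12, 17 and 381 member UMIs in IL-27 well 1 and 26 and 1040 in IL-27 well 2. In IL-27 well 3 the IgG1-led cells held 7 to 1414. IgG1-called B-gated cells of IL-27 held up to 20 member UMIs. Whether the plasma-gated cells with few member UMIs are plasma cells was not tested. IgA led in 1, 2 and 6 plasma-gated cells across the IL-27 wells, against 2 and 6 across the PBS wells. With a looser gate of 3 markers and 5 UMIs, IgG1 led in 45 of 132 cells (34.1%) in IL-27 and in 2 of 43 (4.65%) in PBS. Summed over the stricter gate, 9652 Ighg1 UMIs were counted in IL-27 and 8 in PBS, which is 68.7% and 0.244% of the 8 genes' UMIs. The IL-27 wells held 417, 1063 and 8172 of these UMIs. A single cell held 380 of those in IL-27 well 1, and a single cell 1040 of those in IL-27 well 2. Plasma-gated cells therefore held 90.7% of the 10647 Ighg1 UMIs of all kept IL-27 cells and 3.39% of the 236 of all kept PBS cells.

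A single plasma-gated cell carried from 3 to 1414 member UMIs, with a median of 224. Of the 55 cells, 47 had at least 90% of these UMIs from 1 class. The members took up to 8.42% of all UMIs in a cell. An IgG1 cell of IL-27 well 3 held 1409 Ighg1 and 5 Ighg2c UMIs, and an IgA cell of PBS well 2 held 876 UMIs that were all Igha. The least uniform were an IgG1 cell of IL-27 well 3 with 16 Ighg1 and 12 Ighm UMIs and an IgA cell of PBS well 1 with 26 Igha and 25 Ighm UMIs. Ighd was nearly absent. Ighm had 846 UMIs in IL-27 plasma-gated cells and 1113 in PBS ones, and Ighd had 12 and 0.

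The IgE plasma cells were both in IL-27 wells and both also held Ighg1 UMIs. The cell of IL-27 well 1 had 131 Ighe and 8 Ighg1 UMIs. The cell of IL-27 well 3 had 294 Ighe, 184 Ighg1 and 3 Igha UMIs. These 2 cells held 425 of the 444 Ighe UMIs of all kept IL-27 cells, and all kept PBS cells together held 2. Mixed classes were seen in the IgG2c cells too. One of IL-27 well 3 had 181 Ighg2c, 17 Ighg2b, 6 Ighg3 and 20 Ighm UMIs, and the one of PBS well 1 had 178 Ighg2c, 39 Ighg3, 9 Ighg2b and 4 Ighm UMIs. The part of shared IgG sequence and of doublets in these mixtures was not tested.

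**Figure D4:**
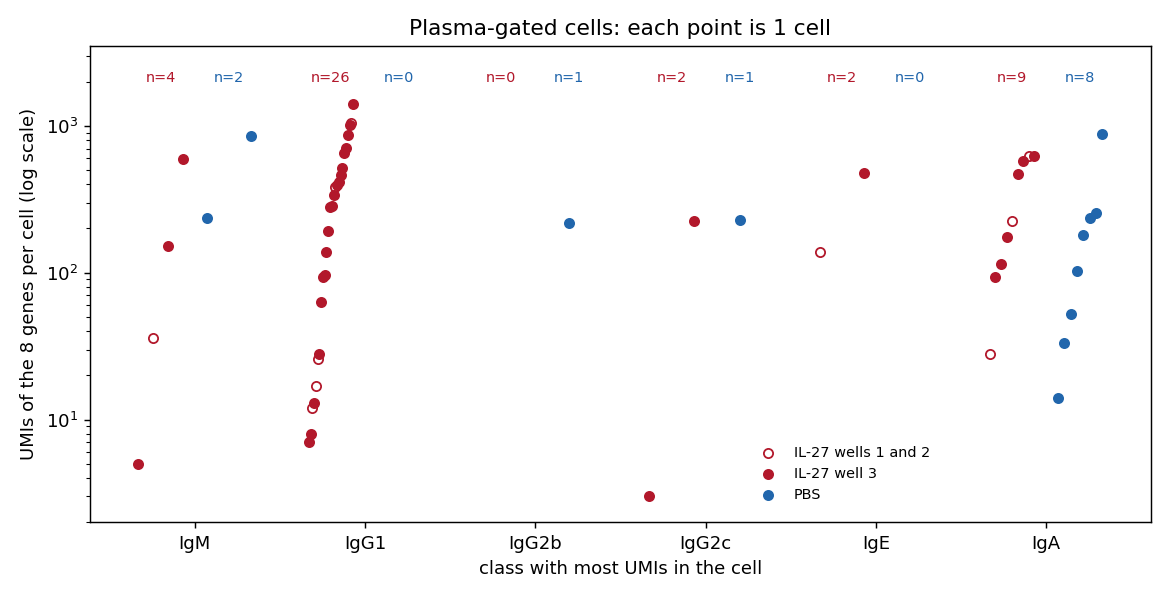
UMIs of the 8 genes in each plasma-gated cell (log axis), by the class with most UMIs, with IL-27 cells in red left of PBS cells in blue, and cells ordered by UMIs within each class. Filled red points are IL-27 well 3 and open red points IL-27 wells 1 and 2. IgG1 led in 26 of 43 IL-27 cells and in 0 of 12 PBS cells.

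Ighm RNA was also counted outside the B lineage, and its level in the whole T gate was close between wells. T-gated cells (at least 2 Cd3 UMIs and none of the 4 B-cell markers) had 118, 97.5 and 102 CPM of Ighm in the IL-27 wells and 113 and 104 CPM in the PBS wells. The treatments overlapped, with a pooled ratio of 0.973 (0.910 to 1.04). An Ighm UMI was found in 29.6% of IL-27 and 31.0% of PBS T-gated cells, and in 9.5% and 8.96% after thinning to 1000 UMIs, against 57.9% and 57.6% of B-gated cells. Up to 20 Ighm UMIs were counted in 1 T-gated cell.

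The RNA accompanying Ighm differed between T- and B-gated cells. In T-gated cells there were 27.3 Ighm UMIs per Ighd UMI in IL-27 and 21.3 in PBS, against 1.5 and 1.68 in B-gated cells. Per UMI of Igkc, the kappa light chain, there were 8.33 Ighm UMIs in IL-27 and 4.18 in PBS, against 0.752 and 0.740 in B-gated cells. In each of the 5 wells both ratios were higher in T- than in B-gated cells. T-gated cells with no UMI of Igkc, Jchain or Cd74, a subset added after the data had been seen, had 115, 89.6 and 96.8 CPM of Ighm in the IL-27 wells and 107 and 107 CPM in the PBS wells. Their pooled Ighm level was 103 CPM in IL-27 and 107 CPM in PBS, near the 107 and 110 CPM of all T-gated cells. They made up 4486 of the 6355 T-gated cells in IL-27 and 1471 of 2216 in PBS, so the nearness is partly built in. The source of this Ighm RNA was not tested.

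Other lineages held Ighm too, with more spread between wells. NK-gated cells had 113 CPM of Ighm in IL-27 (69.1 to 145 CPM over the wells) and 136 CPM in PBS (95.5 and 148 CPM). Myeloid-gated cells, 84 in IL-27 and 80 in PBS, had 121 and 185 CPM. CD8 cells of the T gate had 127, 112 and 104 CPM in the IL-27 wells and 152 and 30.0 CPM in the PBS wells, so that PBS well 2 was the lowest. Its interval of 20.5 to 42.4 CPM lay below those of the other 4 wells. Mast cells of PBS well 2, gated after the data had been seen, had 2 Ighm UMIs in 77 cells (9.66 CPM, 1.17 to 34.9). No member other than Ighm and Ighd passed 1 CPM in T-gated cells, except Igha in both PBS wells (2.84 and 29.7 CPM).

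**Figure D5:**
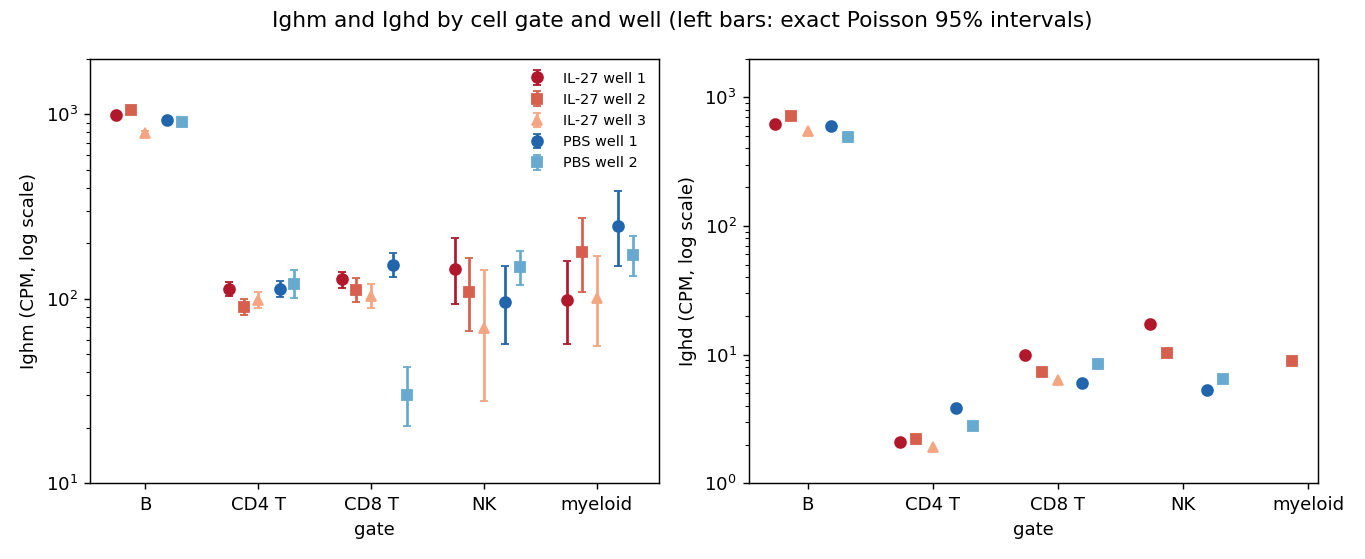
Ighm (left panel, exact Poisson 95% intervals as bars) and Ighd (right panel) in CPM on log axes for B, CD4 T, CD8 T, NK and myeloid gates, with IL-27 wells in reds left of PBS wells in blues. Wells with 0 Ighd UMIs are not drawn. Ighm in T-gated CD4 cells was 90.2 to 121 CPM, and CD8 cells of PBS well 2 were at 30.0 CPM.

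Genes that build, splice, switch or read the antibody were compared in B-gated cells from lists. Over all 7759 genes the median log2 ratio was 0.03, and 0.76% were past 1.5-fold either way. A count of 0 in these lists is near that share. In the class switch list 17 of 21 genes met the minimum, with a median log2 ratio of 0.15. Hmces, which protects abasic DNA sites, had 47.4 CPM in IL-27 and 33.7 CPM in PBS, a ratio of 1.41 (1.29 to 1.54), and its wells were at 39.6, 30.6 and 65.5 CPM in IL-27 and 33.5 and 33.8 CPM in PBS. Ung, a uracil glycosylase of the same list, had 12.6 CPM in IL-27 and 10.4 CPM in PBS. Of the 21 receptors and transcription factors that direct switching and met the minimum, 0 were past 1.5-fold, and their median log2 ratio was 0.03. Among them Il27ra, the IL-27 receptor, had 52.3 CPM in IL-27 and 48.9 CPM in PBS, and Il4ra, the interleukin-4 receptor, 84.1 and 79.3 CPM.

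The remaining lists were read beside the same share of 0.76% of all genes. Of the 11 light chain and receptor complex genes 0 were past 1.5-fold (median log2 ratio -0.03), with Igkc at 1235 CPM in IL-27 and 1237 CPM in PBS. Of 3 genes for IgD splicing above the minimum 0 were past it, and Zfp318, which is needed for Ighd splicing in mice, had 160 CPM in IL-27 and 154 CPM in PBS. Of 7 Fc receptor genes above the minimum 0 were past it. In the secretion list 1 of 9 genes above the minimum was past it, with a median log2 ratio of 0.01. Jchain, which links IgM and IgA polymers, had 21.6, 17.1 and 74.4 CPM in the IL-27 wells and 16 and 13.9 CPM in the PBS wells. By CPM every IL-27 well was higher than both PBS wells, by little apart from IL-27 well 3. The share of all genes with this order was not counted. By B-gated cells with a Jchain UMI the wells overlapped, at 1.41%, 1.91% and 4.26% in IL-27 and 0.935% and 3.00% in PBS.

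Across 31 sums of UMIs by B or plasma gate and well, the genes whose log2(CPM + 1) ran most like a member's were described by Pearson's r among 9301 genes outside the immunoglobulins. The sums share wells and gates, so r is a description. Only IL-27 well 3, with 33 plasma-gated cells, gave a plasma sum. For Ighd the most alike genes were Slamf6 (r = 0.97), Rnf144a (0.96) and Zfp318 (0.96), and without the plasma sum Zfp318 had 0.93. Ighd was the member with the closest likenesses. For Ighm they were Scfd2 (0.85), Cdc42se2 (0.78) and Atf6 (0.78), and for Ighg3 Tcf4 (0.86), Crip1 (0.86) and Cbfa2t3 (0.83). For Ighg1 they were Cks1b (0.83), Eaf2 (0.83) and Slpi (0.82), and for Igha Ass1 (0.77), Fam89a (0.76) and Scpep1 (0.75). For Ighg2b they were Zbtb38 (0.71), Lime1 (0.70) and Fah (0.68), and for Ighg2c Dynll2 (0.80), Klhdc2 (0.79) and Sec61b (0.76). For Ighe, whose UMIs came almost wholly from 2 cells, they were Sec61b (0.90), Txndc11 (0.87) and Derl3 (0.86). Of these cells only that of IL-27 well 3 entered a sum. Without the plasma sum the r of the same genes, in the same order, was 0.65, 0.58 and 0.62 for Ighe. It was 0.69, 0.66 and 0.48 for Ighg2c, 0.81, 0.77 and 0.68 for Ighg1, and 0.80, 0.82 and 0.66 for Igha. For the other members it moved little.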

How the data were processed

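RNA was measured in live CD45+ gastric mucosal cells with 10x Genomics 5' v1.1 chemistry. The authors ran Cell Ranger 3.0.0 against mm10, per the submitters' processing notes, but 3.1.0 stands as software version in the matrix files. The deposited values are UMI counts, whole numbers for each gene in each barcode. There were 20897 barcodes (80121995 UMIs) for IL-27 and 12276 (43501501 UMIs) for PBS.

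Cells with at least 200 genes and at most 10% mitochondrial UMIs were kept. Doublets were called per well by Scrublet (scanpy 1.11.5) at its automatic threshold, and a call under 0.5% was not used. That removed 607 IL-27 and 100 PBS cells. Cells were gated on raw UMIs, with plasma cells first (at least 4 of 7 markers and 10 UMIs) and then B cells and their gates in a set order, so that germinal centre cells precede B1-like, Il4i1, Cr2, Fcer2a and the remaining cells. CPM used all genes. Intervals were exact (scipy 1.17.1), and the ratio calculation was tested on simulated data. Fold calls used a pseudocount of 1 CPM. No count model was fitted, since each treatment is 1 library. The sequences and positions are from GENCODE M21.

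The members and lists were chosen with earlier results of these data known. All 8 members are named, and of each list those past 1.5-fold and up to 4 others, apart from genes that are not reported here. For each member the 3 genes most like it are named, among genes with at least 200 UMIs over sums of at least 20 cells. Alternatives varied cell filters, doublets, gates, depth, call rules, scaling, pseudocount and sex, and left out each well.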

Additional observations from a re-analysis of the deposited data

Results flagged for a closer look

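Kept cells outside the B, plasma, T and myeloid gates numbered 2708 in IL-27 and 1995 in PBS, and 2 members there were above the PBS library with intervals that did not overlap. Ighg2c was at 24.2 CPM (21.4 to 27.2) in IL-27 and 0.444 CPM (0.121 to 1.14) in PBS. Of its 271 IL-27 UMIs, 259 lay in 1 cell of IL-27 well 3, beside 21 Ighg2b UMIs, 900 Jchain UMIs and 18 Cd3 UMIs, which kept it out of the plasma gate. Ighg1 was at 31.4 CPM (28.2 to 34.9) in IL-27 and 5.55 CPM (4.12 to 7.32) in PBS. Of its 352 IL-27 UMIs, 245 lay in 1 cell of IL-27 well 3 with 1225 Jchain and 8 Cd3 UMIs. Similar cells held 122 Igha UMIs in IL-27 well 1 and 395 in PBS well 2. The Igha level outside the gates was 21.8 CPM in IL-27 and 87.6 CPM in PBS.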

How the results depend on the processing

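No paired analysis was possible because each treatment is 1 library and the well numbers do not pair wells across treatments. Of 80 recomputed values of the main comparisons, 60 stayed within the interval of the reported value (counts within 1.5 times), 16 moved and 4 reversed. All 4 reversals came from leaving out PBS well 2 or keeping only cells called female (an Xist UMI and no Y-linked UMI). Y-linked UMIs lay only in PBS well 2, so these settings are not independent, and sex cannot be told apart from well there. With female-called cells the ratio of switched shares was 1.61 and the Ighm and Ighd share of member UMIs was 1.75 points lower in IL-27 (-1.75), against 2.93 points higher in the reported values. The ratio of the Ighd to Ighm ratios was then 1.02, against 1.12, and 1 member was past 1.5-fold, against 3. For Ighg2b and Igha the log2 ratios turned to 0.0589 and 0.41 with female-called cells, against -1.17 and -1.44, and the ratio of IgA-called shares turned to 1.42 and the Igha share difference to 0.429 points. Without PBS well 2 they were 0.48 for the log2 ratio of Igha, 1.53 for IgA-called shares and 0.418 points for the Igha share.

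Leaving out 1 well at a time, the ratio of switched shares ran over 0.247 to 1.60, the ratio of Ighd to Ighm ratios over 1.03 to 1.23, and the Ighm and Ighd share difference over -1.40 to 7.15 points. Members past 1.5-fold numbered 1 to 3, and genes past 1.5-fold 50 to 123. The IgG1 share of plasma-gated cells was 50 to 62.2 points higher in IL-27. The log2 ratio of Ighg1 stayed positive, at 0.72 to 1.82, and was 0.36 without germinal centre-gated cells, against 1.16. Ranges for Igha were -2.22 to 0.48 for the log2 ratio, 0.143 to 1.53 for the ratio of IgA-called shares and -5.95 to 0.418 points for its share. PBS well 2 set the reversals, PBS well 1 the other extreme, and IL-27 well 3 the plasma value. Against 59 genes past 1.5-fold, there were 111 without the exclusion of cells with a UMI of another lineage, 32 at a pseudocount of 10 CPM and 274 without the filter on low counts. Thinning to 1000 UMIs gave a share difference of 2.34 points, and the looser plasma gate an IgG1 difference of 29.4 points, against 60.5. The cause was not tested. Depth limits the class call to cells with 3 member UMIs, and Ighe and Ighg2c to single cells.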
